A study of Mus musculus with 12 samples.

Results

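The genes described here are TNF and the feedback and subunit genes of the NF-kB pathway, 10 genes chosen by symbol: Tnf, Nfkbia, Nfkbiz, Nfkbid, Tnfaip3, Ier3, Nfkb1, Rel, Nfkb2 and Relb. All 10 were found among the 26608 gene rows of the count files, and all 10 were among the 14254 genes that passed the filter on low counts. They were proposed because most of them were lower in nonclassical monocytes with a Hif1a deletion than in control nonclassical monocytes, so that difference is given below as a description, with no calls or p-values of these genes. Their counts ranged from 41 to 31138 reads per library.

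RNA was sequenced from nonclassical monocytes (NCM), blood cells that crawl along vessel walls, and interstitial macrophages (IM), which live in the lung tissue rather than in its air spaces, sorted in pools of about 250 cells from lungs of C57Bl/6 mice. IM deleted and NCM deleted libraries came from Cx3cr1cre;Hif1αΔ/Δ animals, in which Cre recombinase driven by Cx3cr1, a chemokine receptor gene of monocytes and macrophages, excises floxed Hif1a, the oxygen-regulated subunit of HIF-1. IM control and NCM control libraries came from Hif1αflox/flox animals without Cre. All animals of all 4 groups had spent 3 weeks in hypoxia with a weekly dose of SU5416, an inhibitor of VEGF receptors, so no group shows the state before exposure. Each group has 3 libraries, named by cell type and the number in their titles: IM649, IM650 and IM661 are IM deleted, IM648, IM659 and IM660 are IM control, NCM649, NCM650 and NCM661 are NCM deleted, and NCM648, NCM657 and NCM659 are NCM control. Values of single libraries are given in this order. Since only deleted animals carried Cre, the Cre allele and the deletion cannot be told apart.

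TNF is an inflammatory cytokine that macrophages and monocytes release, and it signals through receptors whose adaptors activate the IkB kinase. That kinase marks IkB-alpha, the product of Nfkbia, for degradation, which frees NF-kB dimers to enter the nucleus. The dimers are built from the products of Nfkb1, Nfkb2, Rel and Relb together with RelA. Several target genes of NF-kB act back on it: Nfkbia restores the inhibitor, Tnfaip3 encodes the ubiquitin-editing enzyme A20 that shuts off upstream signalling, and Nfkbiz and Nfkbid encode nuclear IkB proteins that modulate NF-kB at its targets. HIF-1 and NF-kB are known to influence each other in myeloid cells.

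RefSeq start-site windows of GRCm38.p6, from 250 bases before to 50 bases after each transcript start, were matched for 7 of the 10 genes, in 12 windows; Nfkb1, Nfkbiz and Relb were not matched. The stretches before the start are shown for Tnf, Nfkbia, Nfkbid and Tnfaip3, the genes that were higher in IM deleted than in NCM deleted libraries, and for Rel, which was lower in IM control than in NCM control libraries. Capitals mark exact matches of the 10-letter kB motif, the consensus recognised by NF-kB dimers, on either strand, with overlapping matches joined. Nfkbid and Tnfaip3 have further windows, and for each only the window that holds such a match is shown. Bases in annotated exons were left out, so Tnfaip3 and Rel have fewer than 250 bases. They lie at chr17:35202008-35202257 on the minus strand for Tnf, chr12:55492648-55492897 on the minus strand for Nfkbia, chr7:30422156-30422405 on the plus strand for Nfkbid, chr10:19015411-19015547 on the minus strand for Tnfaip3 and chr11:23770971-23771219 on the minus strand for Rel.
Tnf: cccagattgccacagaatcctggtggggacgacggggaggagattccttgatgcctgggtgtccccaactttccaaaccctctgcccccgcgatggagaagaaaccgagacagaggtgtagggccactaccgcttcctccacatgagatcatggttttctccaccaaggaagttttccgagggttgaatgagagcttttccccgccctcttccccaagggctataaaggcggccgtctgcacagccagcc
Nfkbia: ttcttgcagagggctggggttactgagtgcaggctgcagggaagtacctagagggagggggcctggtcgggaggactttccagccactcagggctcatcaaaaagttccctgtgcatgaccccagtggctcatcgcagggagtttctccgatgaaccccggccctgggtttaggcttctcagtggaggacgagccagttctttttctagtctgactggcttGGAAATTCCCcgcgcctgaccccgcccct
Nfkbid: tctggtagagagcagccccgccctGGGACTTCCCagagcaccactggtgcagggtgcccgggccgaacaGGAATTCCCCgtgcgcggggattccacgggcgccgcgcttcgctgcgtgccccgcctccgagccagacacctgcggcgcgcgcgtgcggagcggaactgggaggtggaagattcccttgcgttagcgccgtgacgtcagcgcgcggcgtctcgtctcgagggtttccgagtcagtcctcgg
Tnfaip3: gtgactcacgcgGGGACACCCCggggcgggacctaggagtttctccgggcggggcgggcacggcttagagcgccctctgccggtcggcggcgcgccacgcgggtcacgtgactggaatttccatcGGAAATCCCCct
Rel: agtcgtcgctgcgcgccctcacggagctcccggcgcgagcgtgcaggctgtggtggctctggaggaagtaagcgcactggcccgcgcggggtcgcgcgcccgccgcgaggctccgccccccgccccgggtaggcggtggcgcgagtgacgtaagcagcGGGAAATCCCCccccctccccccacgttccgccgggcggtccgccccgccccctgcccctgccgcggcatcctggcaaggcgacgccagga

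The kB motif was matched in 8 of the 12 windows and in 6 of the 7 genes, Tnf being the exception, beside 8.462% of all 32841 windows and 9.553% of the 27018 genes with a window. In Nfkbia the match lies 29 to 20 bases before the start, reads GGGAATTTCC on the opposite strand and is the only exact match of its window. In Tnfaip3 a match lies 12 to 3 bases before the start and another 125 to 116 bases before it. Nfkbid has 2 separate matches, both in the second of its 3 windows. The 11 capitals of Rel hold overlapping matches that differ by a shift of 1 base. With 1 mismatch allowed outside the leading GGG, all 12 windows held the motif, Tnf included, beside 52.139% of all windows. The cores ACGTG or GCGTG of the hypoxia response element, the sequence that HIF-1 binds, were matched on either strand in 9 of the 12 windows and in 5 of the 7 genes, beside 43.784% of all windows; Nfkbia and Tnf had none. A match describes the letters of these windows and says nothing of binding in these cells.

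**Figure D1:**
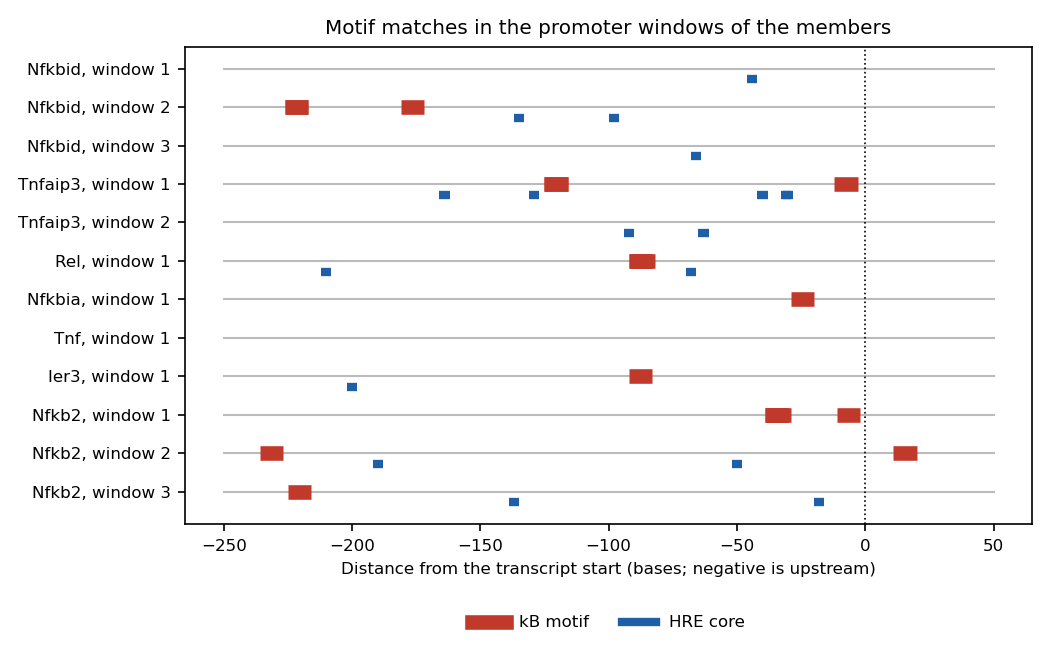
Positions of kB motif matches (red) and hypoxia response element cores (blue) in the 12 start-site windows of 7 genes, with the distance from the transcript start in bases on the x axis and a row per window. The kB motif is matched in 8 of the 12 windows, and the Tnf window has a match of neither motif.

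Gene counts per library ranged from 5332600 to 14099509, and levels below are CPM (counts scaled to a common library total, with a normalization factor per library). These totals were 7039631 to 9054232 in IM deleted and 13333039 to 14099509 in IM control libraries, which do not overlap. They were 5332600 to 11169706 in NCM deleted and 7238612 to 8583265 in NCM control libraries. The targeted gene, Hif1a, had 192 to 204 CPM in IM deleted against 212 to 243 CPM in IM control libraries, and 154, 212 and 150.3 CPM in NCM deleted against 246, 221 and 207 CPM in NCM control libraries; it did not pass in either comparison (log2 fold change -0.20, adjusted p = 0.938, and -0.38, adjusted p = 0.407, edgeR quasi-likelihood test). Counts per gene do not measure the excision of single exons. The summed level of the interstitial macrophage markers was 11382 to 13972 CPM in IM deleted and 17703 to 18666 CPM in IM control libraries, and 784 to 1432 CPM in NCM deleted and 2104 to 3594 CPM in NCM control libraries. The nonclassical monocyte markers summed to 4151 to 7800 CPM (NCM deleted) and 9190 to 14900 CPM (NCM control). Every marker of both lists that is in the files had counts in some library. The NCM deleted libraries were spread widely on the first principal component (34.2% of the variance). Library NCM661 lay at -26.1, towards the IM libraries at -79.1 to -68.0, and the NCM control libraries lay at 17.8 to 93.5. Library NCM649 lay furthest out at the other end, at 225, with NCM650 at 116. NCM649 also had the fewest gene counts (5332600) and the fewest genes with a count (10526). The endothelial markers of NCM661 summed to 9520 CPM, against 4245 and 4958 CPM in the other NCM deleted and 833 to 3123 CPM in the NCM control libraries. Values that NCM661 moves are therefore given with and without it. Leaving out NCM649 enters only the ranges in the last paragraph. In sorted pools, fewer cells of a type and less RNA per cell cannot be told apart.

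Tnf, the ligand (chr17:35199381-35202007, minus strand, GRCm38 as for all positions), was highest in IM control libraries and lowest in NCM deleted libraries. It had 153, 126 and 237 CPM in the IM deleted libraries, against 412, 323 and 242 CPM in the IM control libraries. All IM deleted libraries lay below all IM control libraries, but the highest deleted one, IM661, came within a few CPM of the lowest control one, IM660. The difference in IM was a log2 fold change of -0.92 (SE 0.306), and it did not pass the threshold over all genes (adjusted p = 0.258, edgeR quasi-likelihood test). Within sequencing lanes, deleted minus control was -1.15 in lane 5 (1 deleted and 2 control libraries) and -1.11 in lane 7 (2 deleted and 1 control), on the log2 scale. In NCM, Tnf had 16.8, 9.55 and 10.4 CPM in the deleted libraries, against 119, 97.98 and 95.6 CPM in the control libraries. Here the groups were far apart, the highest NCM deleted library lying well below the lowest NCM control library. The log2 fold change was -3.09, and it was -2.98 without library NCM661.

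Nfkbia, the inhibitor that NF-kB induces against itself (chr12:55489410-55492647, minus strand), showed the same order of groups as Tnf. It had 354, 263 and 655 CPM in IM deleted libraries, against 725, 596 and 548 CPM in IM control libraries. The IM groups overlapped, because deleted library IM661 lay above 2 of the 3 controls while the other deleted libraries lay below all of them. The log2 fold change in IM was -0.56 (SE 0.287) and did not pass (adjusted p = 0.583). In NCM it had 112, 122 and 112 CPM in deleted libraries, against 444, 347 and 377 CPM in control libraries. The NCM deleted libraries were close to one another, library NCM661 included, and all lay far below the controls, with a log2 fold change of -1.75 with library NCM661 and -1.74 without it.

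Nfkbid (chr7:30421732-30428746, plus strand), a nuclear IkB protein known in mice for its part in lymphocyte development, had 100.03, 67.5 and 261 CPM in IM deleted libraries, against 143, 135 and 108 CPM in IM control libraries. The IM comparison turned on library IM661, which was the highest of all 12 while the other deleted libraries were the lowest of the 6 from IM. The log2 fold change was 0.15 (SE 0.416, adjusted p = 0.9995) with that library and -0.67 without it. In NCM, Nfkbid had 15.5, 22.2 and 31.95 CPM in deleted libraries, against 110.4, 117 and 79.7 CPM in control libraries. The groups were apart, with a log2 fold change of -2.14 (-2.44 without library NCM661, which here was the highest of its group).

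Tnfaip3, encoding A20 (chr10:19000910-19015657, minus strand), had with Nfkbia and Nfkbiz the highest mean levels per kilobase of exon of the 10 genes in IM, at 349.9 CPM per kilobase in IM deleted and 389.8 CPM per kilobase in IM control libraries. In CPM it had 1440.4, 1352 and 2032 in IM deleted libraries, against 2272, 1650.1 and 1450.4 in IM control libraries. These groups overlapped, and the log2 fold change was -0.16 (SE 0.322, adjusted p = 0.996), turning to 0.0526 without library IM648. In NCM it had 399, 529.9 and 178 CPM in deleted libraries, against 876, 912 and 854 CPM in control libraries. The NCM control libraries were nearly equal, and the deleted ones were all lower but spread widely, with library NCM661 the lowest. The log2 fold change was -1.25 with library NCM661 and -0.92 without it.

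Nfkbiz, the other nuclear IkB gene (chr16:55811375-55838899, minus strand), did not separate the IM groups. It ranged from 952 to 1661 CPM in IM deleted and from 1012 to 1415 CPM in IM control libraries, and the log2 fold change was -0.00 (SE 0.355, adjusted p = 0.9995), above 0 without library IM648, IM660, IM649 or IM650 (0.014 to 0.15). In NCM it ranged from 383 to 1175 CPM in deleted and from 1188 to 1995 CPM in control libraries, a log2 fold change of -0.81 that became -0.45 without library NCM661. Ier3 (chr17:35821684-35822923, plus strand), an early response gene whose product is known to affect survival of stimulated cells, was the exception among the feedback genes. It ranged from 90.5 to 133 CPM in IM deleted and from 117 to 169 CPM in IM control libraries, which overlapped (log2 fold change -0.47, SE 0.557, adjusted p = 0.961). In NCM the groups overlapped too, with 55.1, 55.7 and 93.9 CPM in deleted and 6.05, 71.1 and 52.0 CPM in control libraries. The single low control, NCM648, had 41 reads of Ier3, and the NCM log2 fold change of 0.66 was 0.15 without it and 0.36 without deleted library NCM661.

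**Figure D2:**
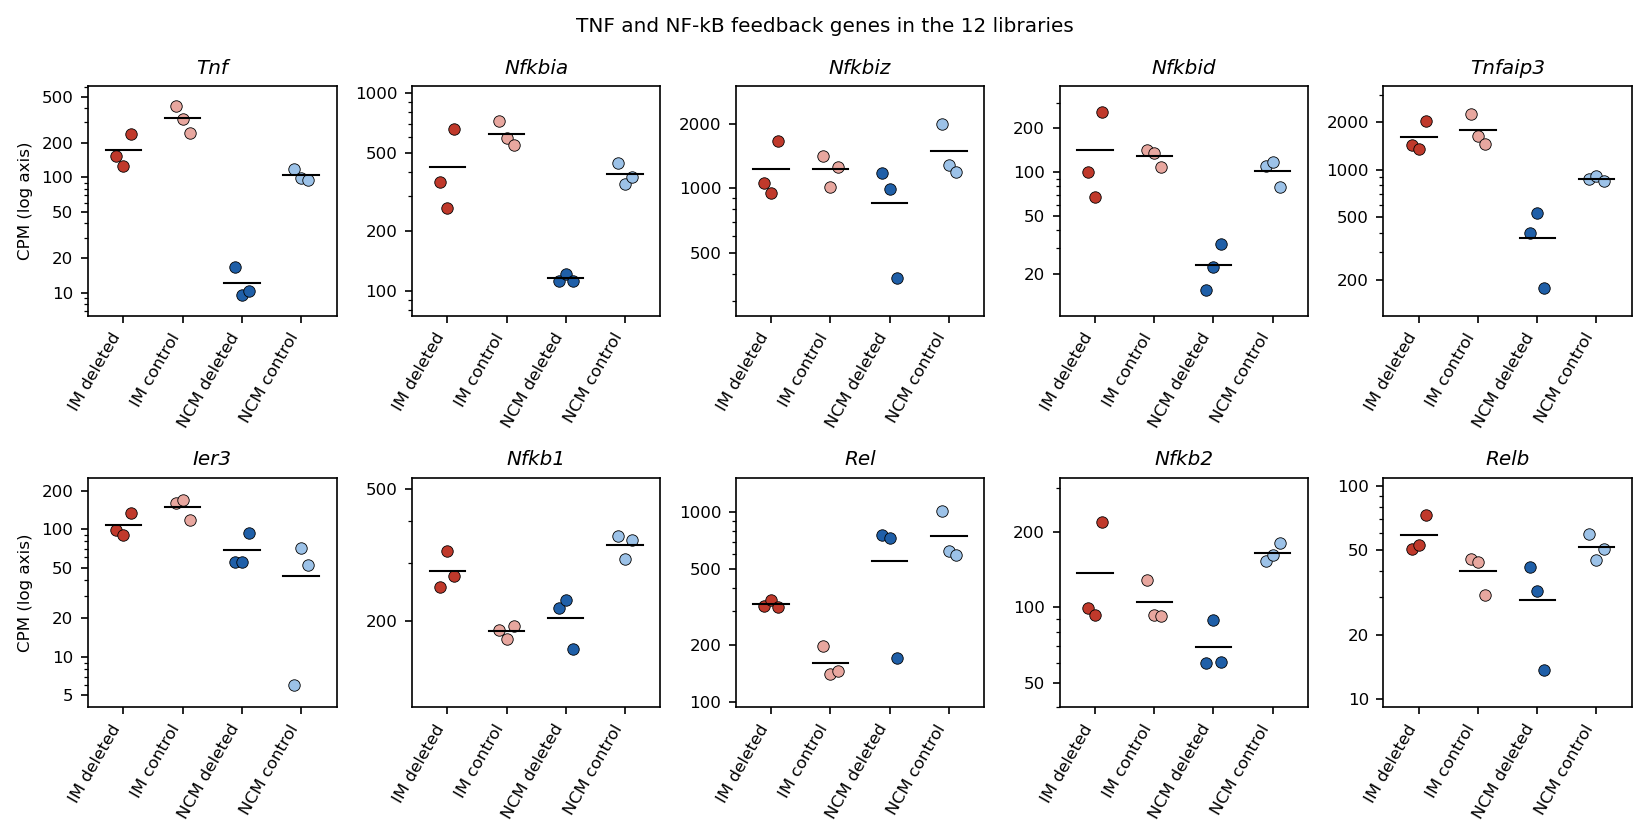
Level of each of the 10 genes in every library, in CPM on a log axis, with a point per library, a bar at the group mean and the groups on the x axis (3 libraries each). Tnf lies between 9.55 and 16.8 CPM in NCM deleted and between 95.6 and 119 CPM in NCM control libraries. Rel, Nfkb1 and Relb are higher in all IM deleted than in all IM control libraries.

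Among the genes of the NF-kB subunits, Nfkb1, Rel and Relb were higher in IM deleted than in IM control libraries without overlap. That is the opposite of Tnf. Nfkb1, whose product is processed to the DNA-binding subunit that partners RelA (chr3:135584655-135691547, minus strand), had 253, 324 and 272 CPM in IM deleted libraries, against 188, 176 and 193 CPM in IM control libraries. Its log2 fold change was 0.61 (SE 0.218) and did not pass (adjusted p = 0.309). Rel, encoding c-Rel (chr11:23736847-23770970, minus strand), had 319, 343 and 317 CPM in IM deleted libraries, against 196, 140.1 and 146 CPM in IM control libraries. The deleted libraries were close to one another and all above the controls, with a log2 fold change of 1.02 (SE 0.410, adjusted p = 0.384). For Rel, deleted minus control was 1.26 in lane 5 and 0.70 in lane 7 on the log2 scale, and for Nfkb1 it was 0.82 and 0.48. Beside these genes, the sum of the 3 nuclear RNAs Malat1, Neat1 and Kcnq1ot1 was 40515 to 54967 CPM in IM deleted and 8924 to 17576 CPM in IM control libraries, and all 3 passed as higher (adjusted p = 0.0444 each, edgeR quasi-likelihood test); its part in the values of Nfkb1 and Rel was not tested.

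Whether Rel passed in IM depended on the fit. It passed with only the 6 IM libraries (adjusted p = 0.00984, where Nfkb1 passed as well at 0.0453) and in the fit without library NCM661 (adjusted p = 0.0322). With the share of reads outside exons as a covariate its log2 fold change was -1.06 (adjusted p = 0.442), and Relb (-0.34) and Ier3 (1.33) changed sign in IM as well. That share was 59.2 to 69.8% in IM deleted and 38.5 to 44.2% in IM control libraries, so it separates the IM groups as the genotype does, and share and genotype cannot be told apart. In NCM, Nfkb1 had 218, 230.2 and 164 CPM in deleted libraries, against 362, 307 and 351 CPM in control libraries. Rel had 759.9, 731 and 169 CPM in NCM deleted libraries, against 1019, 623 and 598 CPM in NCM control libraries. For Nfkb1 the NCM groups were apart in the direction opposite to IM (log2 fold change -0.74, and -0.60 without library NCM661), whereas for Rel the lower mean came from library NCM661 alone (-0.43 with it and -0.00 without it).

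Nfkb2 and Relb encode the partners of the noncanonical branch of the pathway. Nfkb2 (chr19:46304320-46312385, plus strand) ranged from 93.3 to 221 CPM in IM deleted and from 92.8 to 128 CPM in IM control libraries, with the high value in library IM661 (log2 fold change 0.40, SE 0.327, adjusted p = 0.860, and -0.18 without that library). In NCM it ranged from 59.9 to 88.9 CPM in deleted and from 153 to 181 CPM in control libraries, a log2 fold change of -1.25 (-1.15 without library NCM661). The Nfkb2 gene overlaps Psd on the opposite strand, and the strand setting of the counting is not given, so its counts could hold reads of that neighbour. Relb (chr7:19606217-19629438, minus strand) had the lowest mean level per kilobase of exon of the 10 genes in IM, at 26.6 CPM per kilobase in IM deleted and 18.1 CPM per kilobase in IM control libraries. It ranged from 50.5 to 73.3 CPM in IM deleted and from 30.7 to 45.4 CPM in IM control libraries (log2 fold change 0.56, SE 0.406, adjusted p = 0.805), and from 13.7 to 41.7 CPM in NCM deleted and from 44.8 to 59.5 CPM in NCM control libraries (-0.83, and -0.49 without library NCM661).

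Taking the genes by count, 0 of 10 passed in IM deleted against IM control libraries, where 0.288% of all 14254 genes passed, and 3 of 10 (Tnf, Nfkb1 and Rel) had an unadjusted p under 0.05, beside 9.84% of all genes. DESeq2 called none of the 10 either. The IM groups did not overlap for 4 of the 10, with Tnf lower and Nfkb1, Rel and Relb higher in IM deleted libraries, beside 29.6% of all genes (16.2% higher and 13.4% lower). The median log2 fold change was 0.07 over the 10 genes and 0.07 over all genes. Beside Tnf, the sum of the 15 immediate early genes, a sign of acute activation, was 10744 to 16741 CPM in IM deleted and 16547 to 18424 CPM in IM control libraries; its part in the IM values was not tested. In NCM deleted against NCM control libraries, the comparison the genes were chosen on, 0.421% of all genes passed, and calls of the 10 genes are not counted. There 8 of 10 lay lower without overlap (11.4% of all genes), with a median log2 fold change of -1.04 over the 10 genes and -0.10 over all genes; these values restate the choice. RLE factors, another scaling between libraries, moved the median of all genes in this comparison by 0.14, which put it at 0.04. Beside them, the endothelial marker sum was 4245 to 9520 CPM in NCM deleted and 833 to 3123 CPM in NCM control libraries, all 12 of its 12 tested markers having a log2 fold change above 0 and none passing. The nonclassical monocyte marker sum was lower in every NCM deleted library, and so was the sum of the 15 immediate early genes, at 5664 to 6897 CPM in NCM deleted and 8556 to 14267 CPM in NCM control libraries. Nr4a1 is in both of these lists. The part of these differences in the levels of the 10 genes was not tested.

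**Figure D3:**
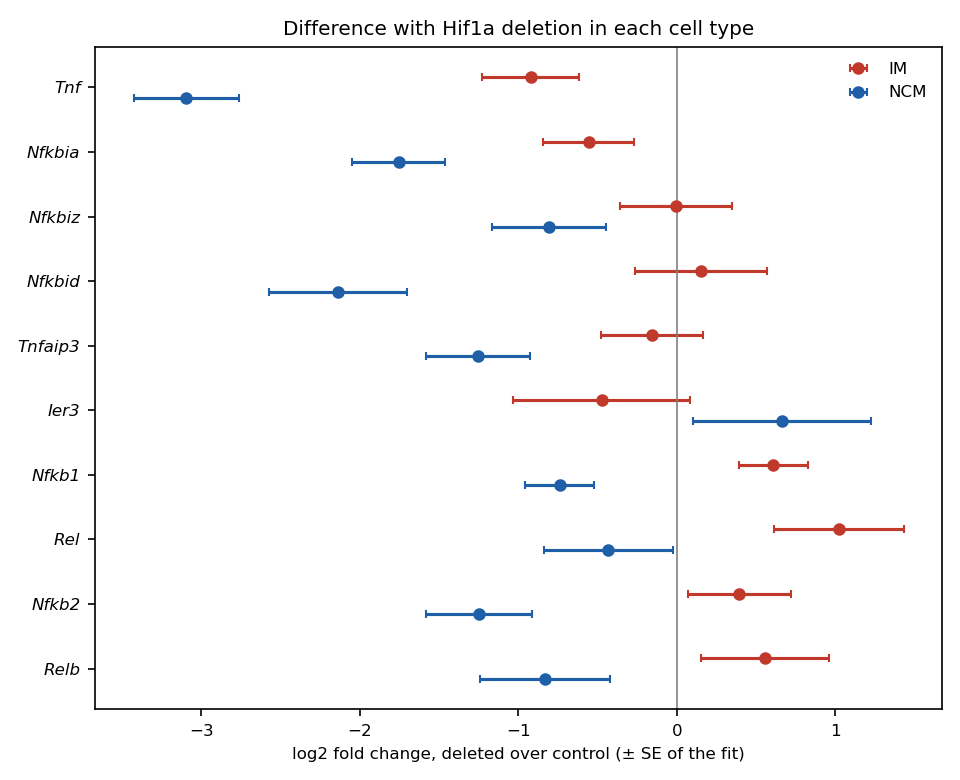
Log2 fold change of each of the 10 genes, deleted over control, in IM (red) and in NCM (blue), with bars of ± 1 SE of the fit. In IM the values run from -0.92 for Tnf to 1.02 for Rel, and in NCM from -3.09 for Tnf to 0.66 for Ier3.

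The difference between these effects was computed in the same fit, as the effect in IM minus that in NCM. It includes the NCM libraries the choice used, so the values are given as a description. It was above 0 for 9 of the 10 genes, at 2.29 for Nfkbid (SE 0.598), 2.17 for Tnf (SE 0.439), 1.64 for Nfkb2, 1.45 for Rel, 1.39 for Relb, 1.35 for Nfkb1, 1.20 for Nfkbia, 1.10 for Tnfaip3 and 0.80 for Nfkbiz, and -1.14 for Ier3. Without library NCM661 it was 2.59 for Nfkbid, 2.06 for Tnf, 1.55 for Nfkb2, 1.02 for Rel, 1.04 for Relb, 1.21 for Nfkb1, 1.18 for Nfkbia, 0.77 for Tnfaip3, 0.45 for Nfkbiz and -0.84 for Ier3. None of the 10 passed, and neither did any other gene: 0 of 14254, or 0%, passed the edgeR quasi-likelihood test. At an unadjusted p under 0.05 there were 1271 genes (8.92%). The 10 are not counted there, because choosing them for lower values in NCM deleted libraries favours a difference above 0. DESeq2 called 62 genes, 2 of them among the 10, and the edgeR fit without library NCM661 called 34, none of the 10. Adjusted p-values of the 10 ran from 0.279 for Tnf to 0.715 for Ier3.

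Comparing the cell types within each genotype asks how far macrophages and monocytes of the same kind of animal differ. Both comparisons share NCM libraries with the contrast the genes were chosen on. Choosing genes lower in NCM deleted than in NCM control libraries favours IM above NCM among deleted animals and below it among controls. Calls and p-values of the 10 in these comparisons are therefore given as a description. Among deleted animals, Tnf averaged 172 ± 57.9 CPM in IM deleted and 12.3 ± 3.98 CPM in NCM deleted libraries (SD, n = 3 each), a 14.1-fold difference (log2 3.82, SE 0.343, adjusted p = 2.3e-05). Nfkbid was 6.13-fold higher in IM deleted than in NCM deleted libraries (143 ± 103 and 23.2 ± 8.27 CPM, adjusted p = 0.0022). Tnfaip3 was 4.36-fold higher (1608 ± 369.7 and 369 ± 178 CPM, adjusted p = 0.0014), and Nfkbia 3.68-fold higher (424 ± 205 and 115 ± 5.63 CPM, adjusted p = 0.0014). These 4 of 10 passed, all higher, beside 4.57% of all genes in either direction and 3.22% higher. For 7 of the 10 every IM deleted library lay above every NCM deleted library, beside 16% of all genes. These 7 were the 4 that passed and Relb, Nfkb2 and Nfkb1, while the groups overlapped for Nfkbiz, Rel and Ier3. Rel had the opposite sign, at -0.76 (SE 0.408, adjusted p = 0.408), and passed at -1.19 without library NCM661 (adjusted p = 0.0056); the 4 genes above also passed without that library. With only the 6 libraries Nfkbid missed the threshold (adjusted p = 0.0523, edgeR quasi-likelihood test). No lane held both cell types, so a lane covariate cannot adjust this comparison. Beside these genes, the sum of the 15 immediate early genes was 10744 to 16741 CPM in IM deleted and 5664 to 6897 CPM in NCM deleted libraries, with 9 of 15 higher and 0 lower, and the endothelial marker sum was 1051 to 3948 CPM and 4245 to 9520 CPM. The part of these lists in the values of the 10 genes was not tested. IM libraries ran in lanes 5 and 7 and NCM libraries in lanes 6 and 8, so lane and cell type cannot be told apart.

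Among control animals Tnf was higher and 2 of the subunit genes were lower in IM than in NCM. Tnf was 3.12-fold higher in IM control than in NCM control libraries (326 ± 84.8 and 104 ± 13.1 CPM, log2 1.64, SE 0.311, adjusted p = 0.0045). Rel was lower by 4.64-fold (161 ± 30.9 CPM in IM control and 747 ± 236 CPM in NCM control libraries, log2 -2.21, SE 0.424, adjusted p = 0.0047), and Nfkb1 by 1.83-fold (185 ± 8.87 and 340.0 ± 29.1 CPM, log2 -0.88, SE 0.218, adjusted p = 0.0223). These 3 of 10 passed, beside 7.48% of all genes (2.81% higher and 4.67% lower). The libraries did not overlap for 7 of the 10, with Tnf, Nfkbia, Tnfaip3 and Ier3 higher and Rel, Nfkb1 and Nfkb2 lower in IM control libraries, beside 18.6% of all genes higher and 17.2% lower. Tnfaip3 (log2 1.02, SE 0.325, adjusted p = 0.0705) and Ier3 (1.79, SE 0.574, adjusted p = 0.0760) lay close to the threshold, and Tnfaip3 passed with RLE factors (0.0492) and without library NCM650 (0.0377) or NCM661 (0.0049). Nfkbia (0.68, adjusted p = 0.190), Nfkb2 (-0.66), Relb (-0.37), Nfkbid (0.33) and Nfkbiz (-0.28) did not pass.

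The call of Nfkb1 among controls was lost under several settings. Its adjusted p was 0.0623 without a filter (edgeR quasi-likelihood test). It was 0.0981, 0.162 or 0.0863 without library IM648, IM659 or IM660, and 0.0942 or 0.0720 without library NCM648 or NCM659, with the log2 fold change between -0.90 and -0.76. With the share of reads outside exons as a covariate none of the 10 passed, and Rel stood at -0.36 (adjusted p = 0.879) and Tnf at 1.62 (adjusted p = 0.429). The share was 38.5 to 44.2% in IM control and 58.1 to 66.8% in NCM control libraries, which do not overlap.

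**Figure D4:**
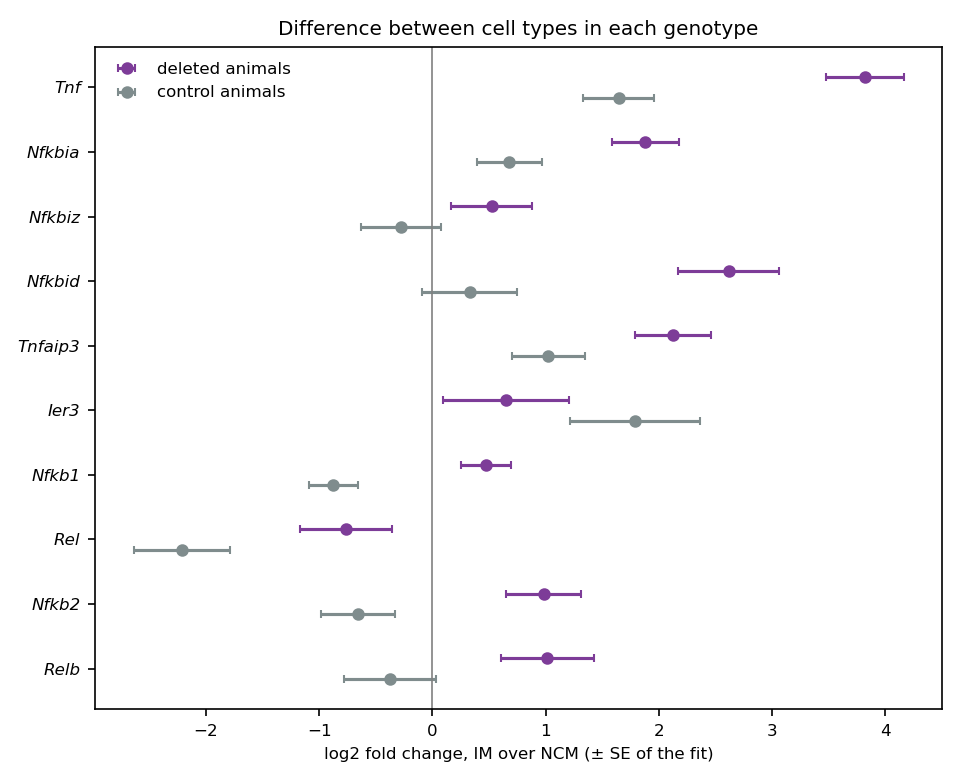
Log2 fold change of each of the 10 genes, IM over NCM, among deleted animals (purple) and among control animals (grey), with bars of ± 1 SE of the fit. Tnf is above 0 in both (3.82 among deleted and 1.64 among control animals) and Rel is below 0 in both (-0.76 and -2.21).

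By mean level the order of the groups was the same for Tnf, Nfkbia and Tnfaip3: IM control, IM deleted, NCM control, NCM deleted. Every neighbouring pair in this order was apart for Tnf. For Nfkbia only the last step, NCM control to NCM deleted, was apart, and for Tnfaip3 the last 2 steps were. Rel followed another order, with NCM control first, then NCM deleted and IM deleted, and IM control last. Of its neighbouring pairs only IM deleted and IM control were apart. Without library NCM661, Rel had 760 and 731 CPM in NCM deleted libraries, above all IM deleted libraries (317 to 343 CPM), so that pair was apart too. The NCM deleted mean was then 746 CPM, beside 747 CPM in NCM control libraries. Nfkb1 had NCM control first, then IM deleted and NCM deleted, with IM control last. Of these neighbouring pairs only IM deleted and NCM deleted were apart. Without library NCM661, Nfkb1 in NCM deleted (218 and 230 CPM) and IM control libraries (176 to 193 CPM) was apart as well. Nfkbid was ordered IM deleted, IM control, NCM control, NCM deleted, and Nfkb2 NCM control, IM deleted, IM control, NCM deleted, and for both only the last group was apart from its neighbour. For Nfkbiz, Relb and Ier3 every neighbouring pair overlapped. Without library NCM661, Ier3 in IM deleted (90.5 to 133 CPM) and NCM deleted libraries (55.1 and 55.7 CPM) was apart.

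Ratios within a library set the genes against each other without the scaling between libraries. The log2 ratio of Nfkbia to Tnf was 1.25 ± 0.205 in IM deleted and 0.96 ± 0.192 in IM control libraries, and 3.28 ± 0.489 in NCM deleted and 1.90 ± 0.0775 in NCM control libraries (SD, n = 3 each). The ratio of Tnfaip3 to Tnf was 3.25 ± 0.161 in IM deleted and 2.47 ± 0.114 in IM control libraries without overlap, and 4.82 ± 0.874 in NCM deleted and 3.08 ± 0.184 in NCM control libraries. Both mean ratios were higher in deleted than in control libraries of either cell type, with overlap between the IM groups for the ratio of Nfkbia to Tnf. The ratio of Rel to Nfkb1 was 0.21 ± 0.128 in IM deleted and -0.22 ± 0.250 in IM control libraries, and 1.17 ± 0.978 in NCM deleted and 1.09 ± 0.367 in NCM control libraries. Without library NCM661 the NCM deleted values were 3.20 ± 0.665 for Nfkbia to Tnf, 5.18 ± 0.868 for Tnfaip3 to Tnf and 1.73 ± 0.0952 for Rel to Nfkb1 (SD, n = 2).

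Over the 12 libraries the genes whose log2 CPM followed Tnf most closely, among 5966 genes ranked, were C5ar1, the receptor of the complement fragment C5a (Pearson r 0.986), Lgals3 (galectin-3, 0.966), Ctsa (a lysosomal carboxypeptidase, 0.962), Dusp1 (a MAP kinase phosphatase, 0.960) and Sgpl1 (sphingosine phosphate lyase, 0.960). For Nfkbia they were Ccrl2 (0.962), Ctsa (0.957), Atp6v0d1 (0.954), Ctsh (0.954) and Eif4a1 (0.953). C5ar1 averaged 188 CPM in IM deleted, 325 CPM in IM control, 14.3 CPM in NCM deleted and 116 CPM in NCM control libraries, close to the levels of Tnf itself. The points share cell type, genotype and lane, so these values describe 12 libraries in 4 groups and are given with no p.

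Of 93 other genes of the pathway, listed by role, 92 are in the files and 91 passed the filter. In IM deleted against IM control libraries none passed, with a median log2 fold change of 0.04 beside 0.07 over all genes. The kinases that relay the signal and their partner subunits had the highest median of the 6 roles there, at 0.63, and 7 of 11 were higher in all IM deleted than in all IM control libraries (16.2% of all genes), but none passed. These 7 were the kinase genes Map3k7, Map3k8, Map3k14, Chuk, Ikbkb, Tbk1 and Ikbke, while the groups overlapped for Tab1, Tab2, Tab3 and Ikbkg, which encode their partners. Ikbkb, the catalytic IkB kinase, averaged 109 ± 37.3 CPM in IM deleted and 74.5 ± 3.56 CPM in IM control libraries. The share of reads outside exons also separated these groups, at 59.2 to 69.8% in IM deleted and 38.5 to 44.2% in IM control libraries. Its part in the kinase values was not tested. The 37 other known target genes had a median of -0.14, and Cxcl2, a neutrophil chemokine, stood at 594 ± 162 CPM in IM deleted and 617 ± 198 CPM in IM control libraries. Rela, the subunit not among the 10 genes, stood at 107 ± 21.3 CPM in IM deleted and 107 ± 2.66 CPM in IM control libraries.

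The same list in NCM deleted against NCM control libraries is given as a description, since the choice of the 10 genes used these libraries. Its median was -0.62, and that of the known target genes -1.25, beside -0.10 over all genes; without library NCM661 they were -0.57 and -1.17. Ccl4, a chemokine gene, averaged 3.26 ± 3.94 CPM in NCM deleted and 65.1 ± 5.62 CPM in NCM control libraries, Cxcl2 27.3 ± 14.2 CPM and 155 ± 82.9 CPM, Il1a, an alarmin cytokine, 5.33 ± 2.23 CPM and 59.4 ± 50.4 CPM, and Tnfsf9, a TNF family ligand, 4.42 ± 1.61 CPM and 29.6 ± 25.4 CPM. The Il1a control libraries reached down to 2.80 CPM and overlapped the deleted ones.

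**Figure D5:**
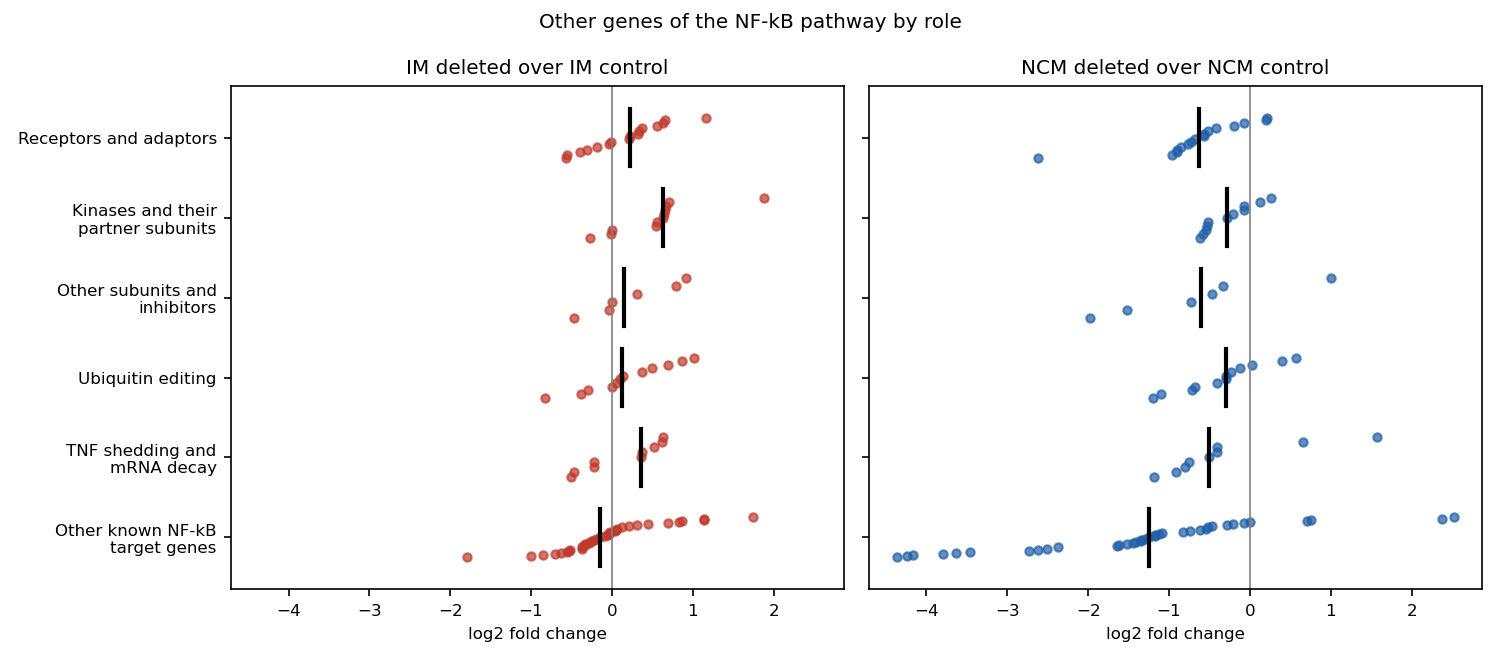
Log2 fold change, deleted over control, of the 91 other pathway genes that passed the filter, by role, in IM (left) and NCM (right), with a point per gene and a black bar at the median of each role. The kinases with their partner subunits have a median of 0.63 in IM and -0.28 in NCM, and the known target genes -0.14 in IM and -1.25 in NCM.

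Among deleted animals 24 of 91 genes were higher and 1 lower in IM deleted than in NCM deleted libraries, beside 3.22% of all genes higher and 4.57% in either direction, and without library NCM661 these were 30 and 7. Of the 24, 19 were known target genes. The anti-inflammatory cytokine gene Il10 averaged 59.2 ± 10.4 CPM in IM deleted and 1.74 ± 1.40 CPM in NCM deleted libraries (log2 5.10, adjusted p = 0.00043), Il1rn, the interleukin-1 receptor antagonist, 199 ± 49.1 CPM and 5.77 ± 5.05 CPM (5.08, adjusted p = 0.0015), and Vcam1, an adhesion molecule, 186 ± 67.6 CPM and 5.69 ± 5.15 CPM (4.99, adjusted p = 0.026). Nfkbib, Nfkbie and Bcl3, which encode further IkB proteins, were also higher. The gene that was lower was Tnfrsf1a, the receptor through which soluble TNF mainly acts, at 93.2 ± 2.05 CPM in IM deleted and 195 ± 36.6 CPM in NCM deleted libraries (-1.06, adjusted p = 0.010).

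Among control animals 8 of 91 genes were higher and 11 lower in IM control than in NCM control libraries, beside 2.81% of all genes higher and 4.67% lower. Of the 8 higher, 7 were known target genes, among them Vcam1 (136 ± 19.6 CPM in IM control and 8.43 ± 9.02 CPM in NCM control libraries, adjusted p = 0.046), Il1rn (3.91, adjusted p = 0.005), the monocyte chemokine gene Ccl2 (3.50, adjusted p = 0.0074) and Il10 (2.41, adjusted p = 0.020). The lower ones were receptors and adaptors, kinases, ubiquitin-editing genes and an mRNA decay factor, among them both TNF receptor genes. Tnfrsf1a averaged 116 ± 5.39 CPM in IM control and 287 ± 22.2 CPM in NCM control libraries, and Tnfrsf1b 289.5 ± 19.5 CPM and 1025 ± 298 CPM (log2 -1.82, adjusted p = 0.0064). Map3k14, the kinase of the noncanonical branch, stood at -2.60 (adjusted p = 0.0027), Traf1, an adaptor, at -2.59 (adjusted p = 0.0053) and Irak3, an inhibitor of interleukin-1 receptor signalling, at -1.82 (adjusted p = 0.041). In the same comparison the immediate early list, whose sum was 16547 to 18424 CPM in IM control and 8556 to 14267 CPM in NCM control libraries, had 8 of 15 genes higher and 1 lower. The lists share genes: Junb and Zfp36 are among the higher genes of both. The lower gene, Nr4a1, is also in the nonclassical monocyte list. The part of the immediate early list in these differences was not tested.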

How the data were processed

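Each of the 12 deposited files holds raw read counts by gene, which the authors had neither normalized nor filtered, in 26608 gene rows and 5 summary rows per library. Per the submitters' processing notes, the tools were TopHat2 2.1.1, HTSeq 0.6.0 and cutadapt 1.12, with build GRCm38 (mm10). Per the labels, libraries were made from total RNA with a stranded low-input kit, so unspliced RNA stays in them. The sources used here do not give the annotation, the strand setting or the treatment of multiply aligned reads. Summary rows, which took 45.0 to 74.1% of a library, were left out of library sizes; the share of reads outside exons is of gene counts plus such reads, 38.5 to 72.7%.

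Genes were filtered with edgeR's filterByExpr (minimum count 10, 14254 genes) and scaled with TMM factors. All 12 libraries entered a robust quasi-likelihood fit of 4 group means with 8 residual degrees of freedom (edgeR 4.0.16, limma 3.58.1, R 4.3.3), and genes passed at a Benjamini-Hochberg adjusted p under 0.05 over all genes tested. SE is that of the fit. In simulated counts on the 14254 genes, IM deleted against IM control recovered 23% of 4-fold and 51% of 8-fold changes, and IM control against NCM control 24% and 45%. Alternatives were RLE factors, no filter, DESeq2 1.42.0, lane or the share of reads outside exons as a covariate, only the 6 libraries compared, a replicate block, and leaving out each library. Lanes come from the file names.

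Whether each number is an animal of its own is not stated in the labels, and p-values measure the spread between libraries, which may be technical. The 10 genes and all lists were chosen with earlier results of these data known. Of the pathway list, up to 4 genes per direction that passed are named by size of fold change, and, in NCM deleted against NCM control, the 4 largest changes among genes whose mean log2 CPM reaches 4. A further few are named as examples, chosen after their values were seen. For likeness, the 5 highest correlations are named. Exon lengths and positions are from GENCODE M21 (basic set), promoter sequences from RefSeq GRCm38.p6; figures used matplotlib 3.10.9 under Python 3.11.15.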

Additional observations from a re-analysis of the deposited data

Results flagged for a closer look

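Nfkb1 and Relb stood out because their libraries were apart in opposite directions in the cell types: every IM deleted library lay above every IM control library, and every NCM deleted library lay below every NCM control library. The effect in IM minus that in NCM was 1.35 on the log2 scale for Nfkb1 (SE 0.308, adjusted p = 0.310, edgeR quasi-likelihood test) and 1.39 for Relb (SE 0.576, adjusted p = 0.518), so neither difference passed over all genes. The NCM effect in both values was used in choosing the genes.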

How the results depend on the processing

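Without a filter, 153 genes passed in NCM deleted against NCM control (60 in the fit as reported) and 77 in IM deleted against IM control (41). DESeq2 called 953, 373, 1228, 1768 and 62 genes in NCM deleted against NCM control, IM deleted against IM control, IM deleted against NCM deleted (652), IM control against NCM control (1066) and the difference of effects (0), with 5 of the 10 genes in IM control against NCM control (3) and 2 in the difference of effects (0). With lane as a covariate, the genes called in the first 4 of these comparisons were 3, 0, 60 and 468, with 1 of the 10 in IM deleted against NCM deleted (4). The log2 fold change then reversed for Nfkbid in IM deleted against IM control (-0.25) and for Ier3 in IM deleted against NCM deleted (-0.66). No lane held both cell types, so a lane covariate cannot adjust the comparisons between cell types. No conclusion is drawn from their values in that fit. With the share of reads outside exons as a covariate, 351, 0 and 28 genes passed in NCM deleted against NCM control, IM deleted against IM control and IM control against NCM control, with 0 of the 10 in IM control against NCM control. That covariate reversed Rel (-1.06), Relb (-0.34) and Ier3 (1.33) in IM deleted against IM control, Nfkbiz (0.79), Nfkbid (-0.94) and Relb (0.43) in IM control against NCM control, and Ier3 (0.16) in the difference of effects. Only the 6 libraries compared gave 0, 950, 228 and 2015 genes in the first 4 comparisons, in the order given for DESeq2. Of the 10 genes, 2 passed in IM deleted against IM control and 5 in IM control against NCM control. The cause of these shifts was not tested.

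Leaving out 1 library at a time gave 4 to 570 genes in NCM deleted against NCM control, 0 to 234 in IM deleted against IM control, 346 to 1709 in IM deleted against NCM deleted, 504 to 1525 in IM control against NCM control and 0 to 34 in the difference of effects; the highest count came without library NCM661 in each but IM control against NCM control, where it came without library NCM649. The 10 genes gave 0 to 1, 4 to 5, 2 to 4 and 0 calls in the last 4 of these. In IM deleted against IM control the log2 fold change ran from -0.34 to 0.15 for Nfkbiz, from -0.67 to 0.49 for Nfkbid, from -0.41 to 0.0526 for Tnfaip3 and from -0.18 to 0.61 for Nfkb2, so their sign rests on single libraries (IM648, IM660, IM649, IM650 or IM661). Same-numbered IM and NCM libraries did not deviate together (correlations -0.065 to 0.081), so they were not analysed as pairs; whether a number marks 1 animal is not stated. Of the 3 deleted pairs 1 IM and 1 NCM library correlated best with its own number. The replicate block gave 397 genes in IM deleted against NCM deleted and 289 in IM control against NCM control, where Tnf (adjusted p = 0.0535) and Nfkb1 (0.261) missed the threshold and Ier3 (0.0299) passed it. RLE factors moved no total of genes called by over 1.5 times, but gave 28 higher and 31 lower genes in NCM deleted against NCM control, where TMM factors gave 12 and 48, and they moved the median of all genes by 0.14 there and by -0.15 in the difference of effects. At 3 libraries a group, 8-fold changes were recovered about as often as not in simulated counts.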
